A study of Mus musculus with 6 samples.

Results

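The 9 genes described here, Spi1, Irf8, Irf4, Irf5, Gfi1, Maf, Myb, Runx1 and Zeb2, encode transcription factors that steer myeloid progenitors toward granulocytes or toward monocytes. They were taken by name from the 47593 gene rows of a mouse RNA-seq table, and all 9 were found there. Total RNA came from c-Kit positive femur bone marrow cells (c-Kit binds stem cell factor), which had been infected with a neomycin-resistance retrovirus (MSCVneo) carrying the leukaemia fusion MLL-AF9. The infected cells were selected on G418 and passaged serially in methylcellulose with cytokines. All 6 libraries therefore carry MLL-AF9: 3 hold the unchanged fusion (WT) and 3 the fusion with the E531R substitution in AF9 (E531R), and the series addressed which transcripts differ once AF9 no longer binds the corepressor BCOR. The labels do not give the mouse strain or age, or whether replicates were separate infections, cultures or animals. The p-values therefore cover only the spread among these libraries, which may be technical.

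The early choice between granulocyte and monocyte is made by factors that restrain one another. PU.1, the product of Spi1, is an ETS factor that opens enhancers of most myeloid genes, and its dose is known to tilt progenitors toward monocytes. IRF8 pairs with PU.1 and drives monocyte and dendritic cell genes, whereas the zinc finger repressor GFI1 holds back monocyte genes and is needed for neutrophils. RUNX1 and MYB act earlier, in stem and progenitor cells, and MLL-AF9 leukaemia cells are known to depend on MYB.

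Depth ran from 14161139 to 30597351 gene-assigned reads per WT library and from 23755210 to 33459668 per E531R library. WT replicate 3 stood apart. Over the 12991 genes tested, its root mean square difference from WT replicates 1 and 2 was 0.617 and 0.638 on the log2 scale, against 0.302 between those and 0.234 to 0.276 among the E531R libraries. It was also the WT library farthest from E531R, at 1.00 to 1.03, against 0.871 to 0.916 for the other WT libraries. The summed normalised read count of 14 neutrophil granule markers was 251633 to 316782 in WT and 380114 to 398414 in E531R, and that of 12 monocyte and macrophage markers was 27946 to 33266 and 35304 to 39080. Of the tested markers, 12 of 14 neutrophil and 9 of 11 monocyte genes were higher, and 1 of each list was lower. Among all tested genes 10.4% were higher and 9.53% lower. Both sums were higher in every E531R library than in any WT library, as were Spi1, Irf5, Gfi1 and Runx1 but not the other factors. The part of these sums in the results was not tested. Factors such as PU.1, IRF8 and IRF4 also act in B cells and dendritic cells. The sum of 10 B cell markers was 391 to 564 in WT and 490 to 604 in E531R, of which Ighm made up 82.9%, and Ms4a1, Ebf1 and Rag1 had 0 reads in all libraries. The sum of 11 conventional dendritic cell markers was 127 to 168 in WT and 109 to 136 in E531R, with Cd209a at 0 reads, and that of 7 plasmacytoid markers was 2408 to 2800 and 2351 to 2447, with Ly6d at 0 reads. Kit, by which the cells were selected, was read at 3520 to 3702 in WT and 3332 to 3340 in E531R, and the pan-leukocyte gene Ptprc made up 53.6% of the summed stem and progenitor markers.

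Promoter sequence is shown for Irf5 and Runx1, which gave the most stable increases, for Irf8, whose window holds the letters searched for GFI1, and for Myb, whose E531R libraries all lay below WT although it did not pass the test. Each is the 250 bases before a RefSeq transcript start (GRCm38.p6), 5′ to 3′ on the gene's strand, and capitals mark matches to the motifs searched. The windows are chr6:29526375-29526624 for Irf5 (plus strand), chr8:120736108-120736357 for Irf8 (plus), chr16:92697330-92697579 for an internal start of Runx1 (minus) and chr10:21160985-21161234 for Myb (minus), and GENCODE M21 places no exon in any of them.
Irf5: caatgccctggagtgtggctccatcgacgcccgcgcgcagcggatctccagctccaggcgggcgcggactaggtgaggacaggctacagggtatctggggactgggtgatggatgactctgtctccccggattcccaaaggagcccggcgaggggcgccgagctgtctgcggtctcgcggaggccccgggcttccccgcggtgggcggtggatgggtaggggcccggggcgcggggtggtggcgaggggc
Irf8: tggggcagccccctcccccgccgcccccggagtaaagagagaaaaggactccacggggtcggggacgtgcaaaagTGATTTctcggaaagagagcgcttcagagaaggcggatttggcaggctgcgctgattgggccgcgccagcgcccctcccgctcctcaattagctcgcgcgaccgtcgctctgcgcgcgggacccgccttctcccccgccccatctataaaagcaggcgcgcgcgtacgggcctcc
Runx1: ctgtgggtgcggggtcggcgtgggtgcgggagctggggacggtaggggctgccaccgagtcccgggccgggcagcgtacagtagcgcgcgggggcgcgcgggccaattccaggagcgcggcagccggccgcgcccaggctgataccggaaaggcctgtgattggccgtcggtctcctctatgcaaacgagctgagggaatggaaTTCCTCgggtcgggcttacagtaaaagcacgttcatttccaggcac
Myb: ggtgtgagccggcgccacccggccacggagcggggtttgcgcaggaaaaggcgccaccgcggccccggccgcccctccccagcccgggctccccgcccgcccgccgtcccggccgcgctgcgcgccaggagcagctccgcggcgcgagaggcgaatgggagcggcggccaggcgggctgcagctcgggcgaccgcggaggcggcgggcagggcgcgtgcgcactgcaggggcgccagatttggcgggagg
The motifs were GAGGAA for PU.1, the composite of an ETS factor with an IRF and the IRF response motif (by name only), TGTGGT for RUNX, AAATCA for GFI1, TAACNG for MYB, CACCTG for ZEB, TGCTGA for MAF and TTGCGNAA for C/EBP, on both strands. The composite can share letters with the PU.1 and IRF motifs. RefSeq windows were found for 7 of the 9 members, 13 windows in all, and not for Spi1 and Maf. The PU.1 letters stood in 6 of the 13 windows, from 3 members, Zeb2, Irf4 and Runx1, and in 23.3% of the 32851 windows of all genes. The Zeb2 windows that begin at 45113280 and 45113254 overlap and hold the same site. In Runx1 they lie 46 bases before the start shown, on the opposite strand. The GFI1 letters stood in 2 of the 13 windows, both of 1 member, Irf8, and in 12.4% of all windows. In the Irf8 window shown they lie 175 bases before the start, again on the opposite strand. MYB letters were found in 1 of the 13 windows, ZEB letters in 3 and MAF letters in 2, against 19.8%, 17.2% and 16.1% of all windows. The other 4 motifs were found in none of the 13. Among all windows RUNX letters stood in 14.0%, IRF letters in 2.98%, the composite in 2.30% and C/EBP letters in 0.67%. The Irf5, Myb and internal Gfi1 windows held none of the 9 motifs, and the Myb window was 81.2% G and C.

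In the comparison of E531R with WT, 4 of the 9 factors were higher in E531R, 0 were lower with limma, 4 did not pass and Maf was too low to test. The genes that rose were Irf5, 3.46-fold, Spi1, 1.49-fold, Runx1, 1.45-fold, and Gfi1, 1.25-fold, so factors of both the monocyte and the granulocyte side were among them. Of all genes tested with limma at an adjusted p under 0.05, 10.4% were higher and 9.53% lower. At an unadjusted p under 0.05 limma placed 5 members higher and 1 lower. The share of all tested genes at that looser threshold was not computed. This count, and those at an unadjusted p for the lists below, therefore cannot be read against it. edgeR on recovered reads called 4 higher and 0 lower, where it called 20.4% of all tested genes, 10.7% higher and 9.63% lower. DESeq2 on the same reads called 4 higher and 1 lower, Myb, with 20.1% of all tested genes called, 10.6% higher and 9.5% lower. The authors' deposited table also has 4 higher and 1 lower, with 15.4% of its 16596 adjusted p-values under 0.05. Limma itself called 19.9% in either direction. The median log2 fold change of the 8 tested members was 0.43, and that of all tested genes 0.01. The 3 values of one group lay outside those of the other in 5 of the 9 members, the 4 above and Myb, against 44% of all tested genes (21.2% with E531R above and 22.8% with E531R below). In these bulk libraries, fewer cells of a type and less RNA per cell cannot be told apart.

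Spi1 encodes PU.1 and lies on chromosome 2 (91082390 to 91115756, GRCm38, plus strand). Its normalised read counts were 4944, 4862 and 7013 in WT and 8397, 7968 and 8670 in E531R. All E531R libraries were above all WT libraries, and WT replicate 3 lay between its group and the E531R libraries. The mean rose from 5606 ± 1219 to 8345 ± 354 (SD, n = 3 each), or by 0.59 on the log2 scale with an SE of 0.15 (limma, adjusted p = 0.0304). Without WT replicate 3 it was 0.77 (limma, adjusted p = 1.07e-10). The call was lost without any other single library (limma, adjusted p between 0.0812 and 0.119) and with upper-quartile rescaling (0.0519).

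Irf5, on chromosome 6 (29526625 to 29541871, plus strand), encodes a factor that acts downstream of Toll-like receptors and turns on inflammatory cytokine genes in macrophages. Its normalised read counts were 68.6, 52.8 and 77.2 in WT and 245, 205 and 237 in E531R. The lowest E531R library was far above the highest WT library. The log2 fold change was 1.79 (SE 0.17; limma, adjusted p = 0.000414), above that of 97.5% of all tested genes. Leaving out any one library gave 1.64 to 1.91 (limma, adjusted p at most 0.00482). Irf5 shares 411 exonic bases with Tnpo3, an import receptor gene on the opposite strand, which had 3639 in WT and 3641 in E531R.

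Irf8, the partner of PU.1 at monocyte genes, lies on chromosome 8 (120736358 to 120756694, plus strand). It had 1274, 1154 and 1530 in WT and 1787, 1529 and 1744 in E531R. WT replicate 3 and E531R replicate 2 were level, so the groups overlapped. The means were 1319 ± 192 and 1687 ± 138 (SD, n = 3 each), and the log2 fold change of 0.36 (SE 0.12) did not pass (limma, adjusted p = 0.0848). It passed without WT replicate 3 (0.47, limma, adjusted p = 9.78e-06).

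Irf4 encodes a factor of plasma cells, dendritic cells and alternatively activated macrophages, and lies on chromosome 13 (30749226 to 30766976, plus strand). It was covered by 5, 8 and 10 reads in WT and 10, 19 and 14 in E531R. These correspond to 7.98, 9.18 and 7.87 in WT and 6.95, 18.5 and 13.6 in E531R as normalised read counts, so the E531R libraries lay on both sides of WT. Per 10000000 reads assigned to genes this was 3.57 (95% exact Poisson interval 2.26 to 5.35) in WT and 5.28 (3.82 to 7.11) in E531R. Such intervals cover counting error only. The log2 fold change of 0.49 (SE 0.38) did not pass (limma, adjusted p = 0.412).

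Zeb2, a zinc finger repressor that keeps monocytes and dendritic cells on their course, lies on chromosome 2 (44983632 to 45117395, minus strand). It had 2487, 2507 and 1498 in WT and 2306, 2295 and 2259 in E531R. WT replicate 3 was the lowest of the 6 libraries, while WT replicates 1 and 2 were the highest. Over all libraries the log2 fold change was 0.12 (SE 0.20; limma, adjusted p = 0.705). Without WT replicate 3 the sign turned and Zeb2 passed as lower (-0.13, limma, adjusted p = 0.0128).

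Maf, on chromosome 8 (115682942 to 115707794, minus strand), encodes c-MAF, which supports macrophage identity. It was covered by 1 WT read, in replicate 3, and by 3 E531R reads, 1 in each library, at or under the floor of 3 reads, so no fold is given. Its antisense neighbour Gm15655 was listed at 0 in all libraries.

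Gfi1, the main factor of the granulocyte side here, lies on chromosome 5 (107716657 to 107726036, minus strand). Its normalised read counts were 6855, 6556 and 7467 in WT and 8789, 8472 and 8910 in E531R. All E531R libraries were above all WT libraries. The mean rose from 6959 ± 464 to 8724 ± 226 (SD, n = 3 each), or by 0.33 on the log2 scale with an SE of 0.074 (limma, adjusted p = 0.0211). Without WT replicate 3 the log2 fold change was 0.38 (limma, adjusted p = 3.63e-07). The Gfi1 call, like that of Spi1, was lost without any other single library (limma, adjusted p between 0.0666 and 0.108) and with upper-quartile rescaling (0.0584).

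Runx1, a core binding factor subunit needed to form blood stem cells and to raise PU.1, lies on chromosome 16 (92601466 to 92826149, minus strand). It had 1435, 1437 and 1367 in WT and 2046, 2061 and 2041 in E531R. The libraries of each group were nearly level and the groups lay far apart. The log2 fold change was 0.54 (SE 0.062; limma, adjusted p = 0.00107), and it ranged from 0.51 to 0.55 with any one library left out (limma, adjusted p at most 0.0126). WT replicate 3, which lay toward E531R for Spi1, Irf8, Irf5, Gfi1 and Myb, was the lowest library for Runx1.

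Myb, which keeps progenitors dividing, lies on chromosome 10 (21124935 to 21160984, minus strand). It had 11165, 11285 and 9136 in WT and 8110, 8408 and 8391 in E531R. All E531R libraries were below all WT libraries. The log2 fold change was -0.34 (SE 0.097), and it missed the threshold (limma, adjusted p = 0.0532; edgeR quasi-likelihood adjusted p = 0.055). The authors' deposited table gives Myb an adjusted p of 0.0465, with a log2 fold change of -0.33 once turned to E531R over WT. It passed as lower without WT replicate 3 (-0.44, limma, adjusted p = 3.40e-08), with upper-quartile rescaling (0.0288) and with DESeq2 on the recovered reads (0.0439).

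**Figure D1:**
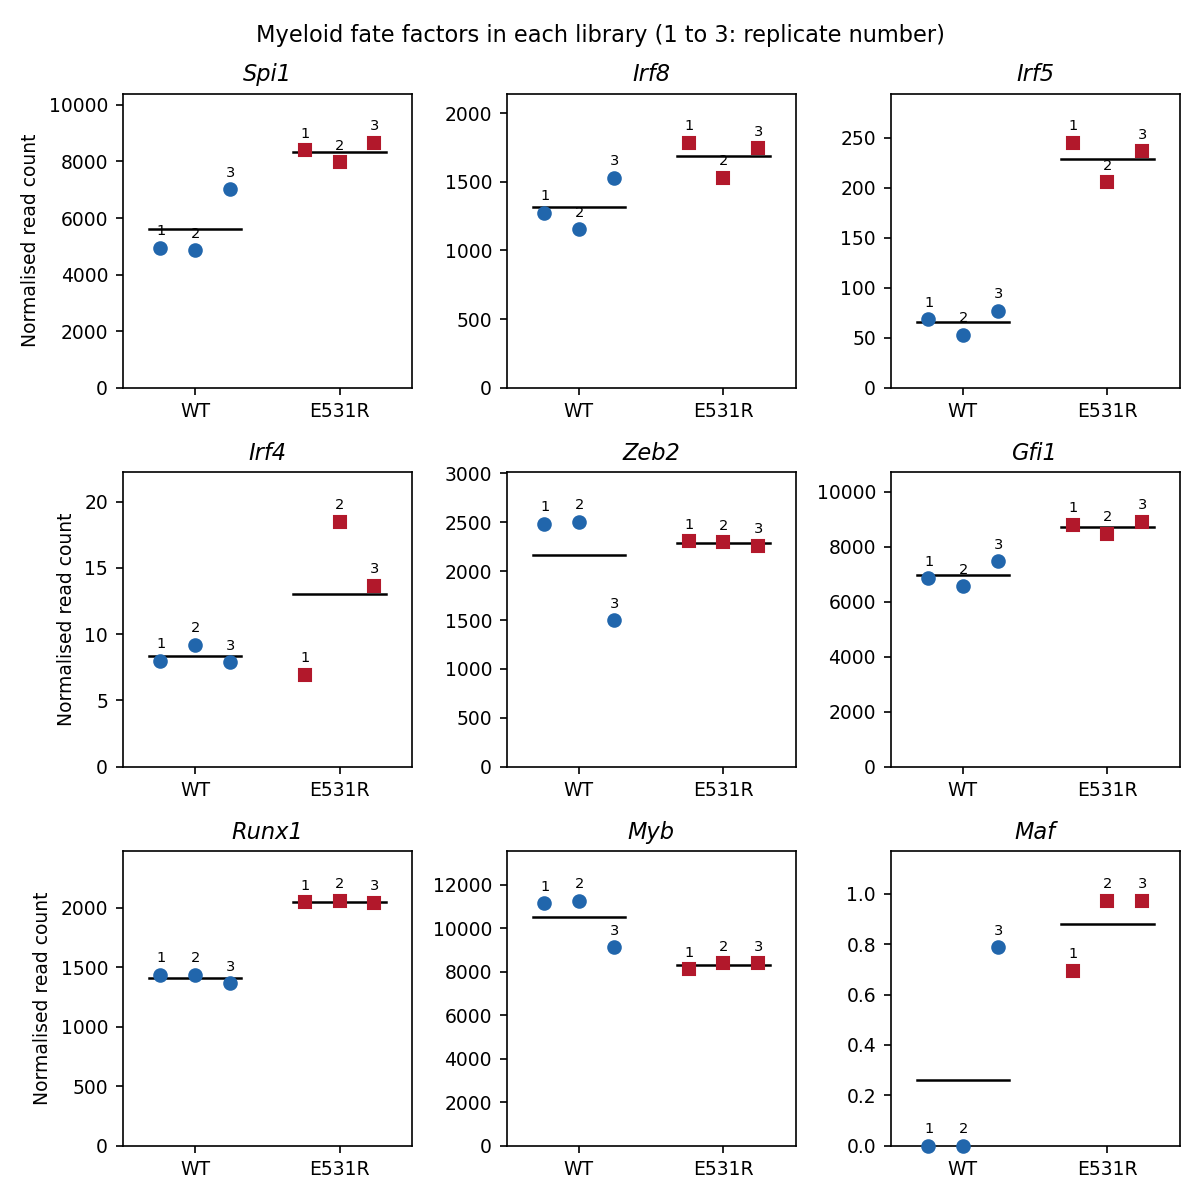
Normalised read count (linear y axes from 0, scaled per gene) of the 9 factors, with 1 point per library numbered by replicate (blue circles WT, red squares E531R) and a bar for the group mean. The Runx1 values are 1367 to 1437 in WT and 2041 to 2061 in E531R, and for Zeb2 WT replicate 3, at 1498, lies below all the other libraries.

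Without WT replicate 3, 5 members were higher and 2 lower, where 47.4% of all tested genes were called, 24.3% higher and 23.1% lower. The additional calls were Irf8, higher, and Myb and Zeb2, lower. In that fit the 2 remaining WT libraries stand for the spread of WT. On the log2 scale WT replicate 3 lay between the mean of WT replicates 1 and 2 and the E531R mean for 5 of the 8 tested members, Spi1, Irf8, Irf5, Gfi1 and Myb, and for 21.2% of all tested genes. The standard deviation of the log2 values was smaller in E531R than in WT for 7 of the 8 tested members, with Irf4 the exception, and for 84% of all tested genes.

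**Figure D2:**
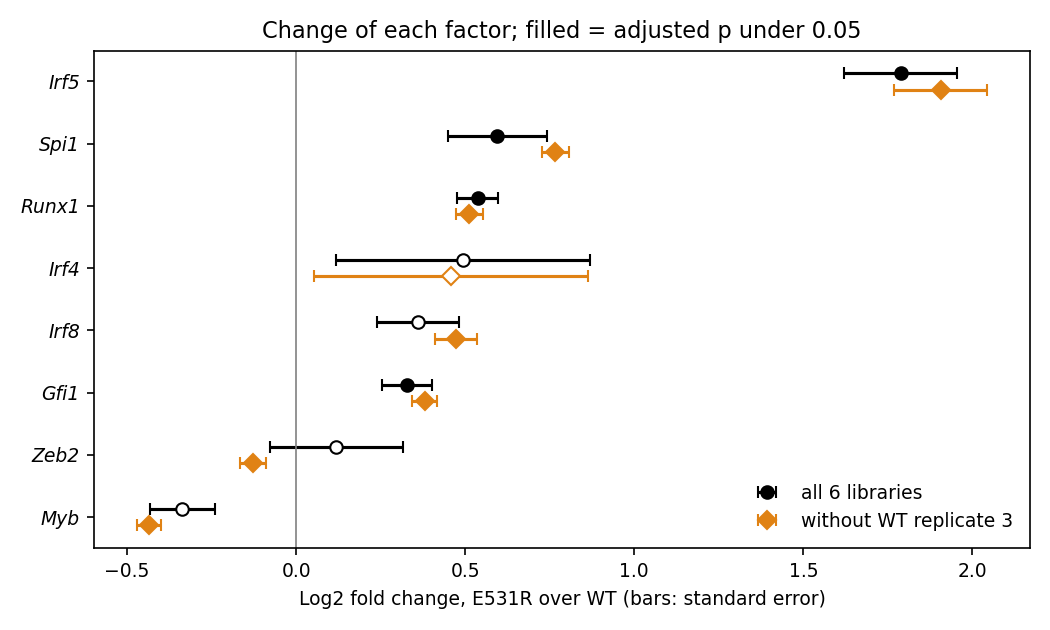
Log2 fold change of E531R over WT (x axis) with its standard error for the 8 tested factors, over all 6 libraries (black circles) and without WT replicate 3 (orange diamonds), filled where the limma, adjusted p was under 0.05. Irf5 lies at 1.79 and 1.91, and Zeb2 moves from 0.12 to -0.13.

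Levels of different genes can be set side by side only per length of transcript, here as normalised read count per kilobase of annotated exon. In WT the order was Gfi1 with 2184 ± 146, Spi1 with 2080 ± 452, Myb with 1179 ± 135 and Irf8 with 187 ± 27.2 (SD, n = 3 each). Below them came Runx1 with 118 ± 3.34, Zeb2 with 109 ± 28.9, Irf5 with 22.8 ± 4.25, Irf4 with 1.70 ± 0.148 and Maf with 0.0318 ± 0.0552. Gfi1 and Spi1 overlapped between libraries, as did Runx1 and Zeb2, and the other neighbours in the order did not. In E531R Spi1 came first, with 3096 ± 131, ahead of Gfi1 with 2737 ± 70.9, and their libraries no longer overlapped. The rest of the order was unchanged, with Myb at 930 ± 18.7, Irf8 at 239 ± 19.6, Runx1 at 170 ± 0.864, Zeb2 at 115 ± 1.23, Irf5 at 78.9 ± 7.23 and Irf4 at 2.66 ± 1.18. All annotated exons were counted in the length, 19.9 kb for Zeb2 and 2.70 kb for Spi1, so genes with long, rarely used exons read low on this scale.

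Ratios of 2 factors within a library do not depend on the size factor of that library, and 7 were compared. With 3 libraries against 3 the exact two-sided permutation test cannot go below p = 0.1. Adjusted over these ratios, the smallest value of this exact permutation test was 0.233, which depends on how many ratios reached that limit. The ratio of Irf5 to Irf8 was 0.0539, 0.0458 and 0.0504 in WT and 0.137, 0.134 and 0.136 in E531R. It was higher in every E531R library, by 1.44 on the log2 scale (p = 0.1, adjusted 0.233, exact permutation test). The ratio of Spi1 to Myb was 0.443, 0.431 and 0.768 in WT and 1.04, 0.948 and 1.03 in E531R. This ratio too was higher in every E531R library, by 0.93 on the log2 scale (p = 0.1, adjusted 0.233, exact permutation test). WT replicate 3 lay between the other WT libraries and E531R. The ratio of Spi1 to Gfi1 was 0.721, 0.742 and 0.939 in WT and 0.955, 0.941 and 0.973 in E531R, a difference of 0.27 (p = 0.1, adjusted 0.233, exact permutation test). WT replicate 3 fell just below the E531R libraries here.

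The ratio of Irf8 to Gfi1, the pair most often set against each other in this fate choice, was 0.186, 0.176 and 0.205 in WT and 0.203, 0.180 and 0.196 in E531R. The groups overlapped, and the mean log2 ratio was -2.41 (SD 0.111) for WT and -2.37 (SD 0.0878) for E531R, with n = 3 each (p = 0.8, exact permutation test). The log2 ratios of Spi1 to Runx1, Zeb2 to Gfi1 and Irf8 to Irf4 differed by 0.06, -0.21 and -0.17 (p = 0.9, 0.4 and 0.9, exact permutation tests), and the groups overlapped in each. WT replicate 3 was the highest WT library for Spi1 to Runx1 and the lowest for Zeb2 to Gfi1.

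**Figure D3:**
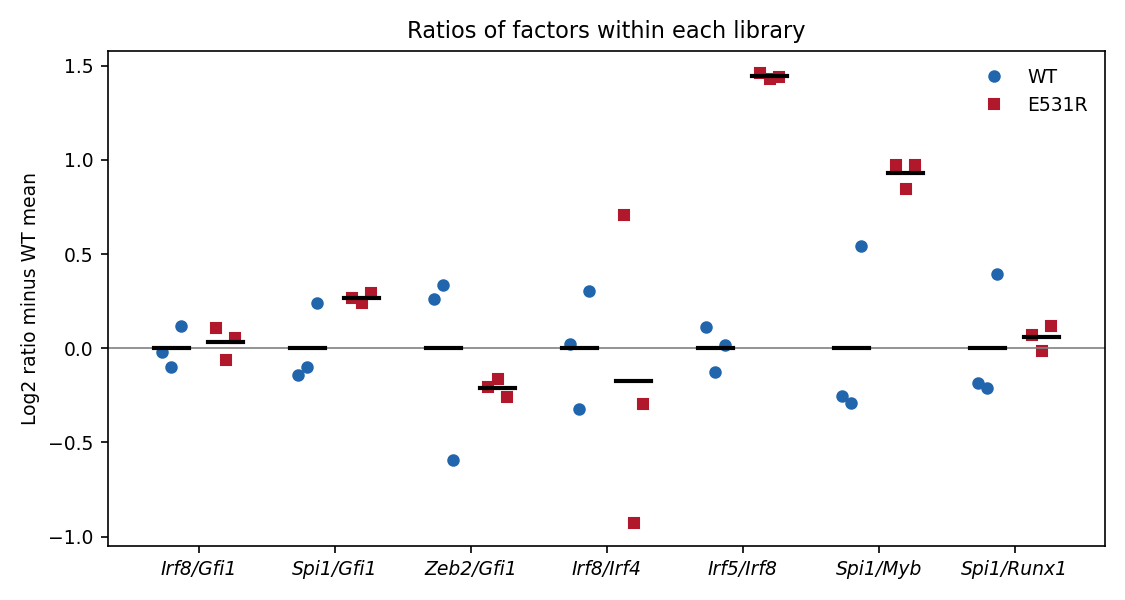
Log2 ratio of 2 factors within each library, shown as the difference from the WT mean of that ratio (y axis), for 7 ratios (x axis); blue circles are WT libraries, red squares E531R libraries and bars the group means. The E531R points lie 1.44 above the WT mean for Irf5/Irf8 and 0.93 above it for Spi1/Myb, and they overlap the WT points for Irf8/Gfi1.

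Of 41 tested relatives and partners of the factors, over 6 family lists, 6 were higher and 4 lower, or 24.4%, beside 19.9% of all tested genes. These were 15 and 8, or 56.1%, without WT replicate 3, beside 47.4%. Of the other IRF genes 0 of 5 tested passed in either direction with limma, with a median log2 fold change of -0.10, and 0 passed at an unadjusted p or with edgeR. Irf3, a mediator of interferon induction, passed as lower without WT replicate 3 (-0.13, limma, adjusted p = 0.0476). Among 10 tested ETS factors of blood cells Elf4 rose and Erg and Elk3 fell. Erg, a factor of stem cells and megakaryocytes, had 1994, 1890 and 1567 in WT and 1056, 1068 and 1119 in E531R, a log2 fold change of -0.74 (limma, adjusted p = 0.00245). The groups were well apart. Erg also acts in endothelium, and the sum of 9 stroma and endothelium markers, of which Pecam1 made up 97.7%, was 5562 to 6461 in WT and 1440 to 1555 in E531R. Its part in the Erg result was not tested. Elk3, an ETS repressor, fell from 991 ± 42.3 to 639 ± 23.4, and Elf4 rose from 3108 ± 144 to 3926 ± 130 (SD, n = 3 each). Of 5 tested RUNX and core binding factor genes 1 fell, Runx3, from 2923 ± 293 to 2329 ± 91.1, opposite to Runx1. Cbfb, the partner subunit of RUNX1, had a log2 fold change of 0.23 (limma, adjusted p = 0.0525).

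The paralogs Gfi1b and Zeb1 were higher in E531R, from low levels. Gfi1b, the erythroid and megakaryocytic relative of Gfi1, had 3.19, 1.15 and 5.51 in WT and 22.2, 23.4 and 19.5 in E531R. Zeb1, the relative of Zeb2 best known from epithelial to mesenchymal change, had 1.60, 2.30 and 3.15 in WT and 22.2, 28.2 and 22.4 in E531R. For both genes all 3 E531R libraries were above all WT libraries, by 2.54 and 2.94 on the log2 scale (limma, adjusted p = 0.00679 and 0.000653). The sum of 7 megakaryocyte markers, cells in which Gfi1b acts, was 91.0 to 124 in WT and 426 to 467 in E531R. Vwf made up 78.8% of it. The 3 tested markers, Pf4, Gp1bb and Vwf, were all higher, with a median log2 fold change of 2.20, beside 10.4% of all tested genes. Among the untested markers Gp9 had 3.76 ± 2.08 in WT and 14.6 ± 2.50 in E531R. Itga2b, also untested, had 5.59 ± 2.16 in WT and 5.79 ± 1.60 in E531R. The sum of 9 erythroid markers was 25.3 to 28.3 in WT and 20.8 to 29.2 in E531R, with Hba-a1, Hbb-bs and Car1 among those at 0 reads. The part of these cells in the Gfi1b result was not tested. Of the 10 tested genes of this list, which also holds the corepressors that GFI1 and ZEB proteins recruit, 3 were higher and 1 lower. Ctbp2, a corepressor of ZEB proteins, rose from 1887 ± 67.7 to 2266 ± 115, and Kdm1a, the demethylase LSD1 that GFI1 recruits, fell from 2449 ± 83.4 to 2097 ± 15.5 (SD, n = 3 each). Of 7 tested MAF, BACH and NFE2 genes Maff and Mafg rose, with log2 fold changes of 0.83 and 0.23. Of Mybl1, Mybl2, Ep300 and Crebbp, MYB relatives and coactivators, 0 passed with limma or edgeR, and 1 was higher at an unadjusted p under 0.05. Without single libraries the calls of Elf4 (WT replicate 1, E531R replicate 1 or 2), Runx3 (WT replicate 1 or any E531R library) and Maff, Mafg, Ctbp2 and Kdm1a (any library but WT replicate 3) were lost, and edgeR did not call Kdm1a.

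Other factors of the monocyte side were higher in 5 of 9 tested and lower in 0, with a median log2 fold change of 0.84. Among all tested genes 10.4% were higher and 9.53% lower. The count of higher monocyte-side factors was 3 without E531R replicate 1 or 3 and 3 among genes with a mean of at least 50. Klf4, a zinc finger factor that acts below IRF8 in monocytes, had 7.98, 9.18 and 18.9 in WT and 172, 155 and 186 in E531R, a 14.2-fold difference in means. The lowest E531R library was far above the highest WT library. Egr1, an early response factor that favours macrophages, rose from 6.24 ± 3.02 to 91.6 ± 17.8, and the vitamin D receptor gene Vdr from 194 ± 18.9 to 375 ± 26.2 (SD, n = 3 each). Of 5 tested factors of the granulocyte side 2 rose and 0 fell. Cebpe, needed for secondary granules, had 1818, 1720 and 2725 in WT and 3837, 3693 and 3960 in E531R, and Rara, the retinoic acid receptor of granulocytes, rose from 462 ± 56.9 to 665 ± 12.1. The calls of both were lost without E531R replicate 3, and that of Rara also without E531R replicate 1 or 2. Cebpa, the factor of early granulocyte progenitors, had a log2 fold change of -0.42 and did not pass (limma, adjusted p = 0.108; edgeR, 0.0945). It passed as lower with DESeq2 on recovered reads (adjusted p = 0.0454) and without WT replicate 3 (-0.23, limma, adjusted p = 8.13e-05). Without that library 4 granulocyte-side factors were higher and 1 lower, beside 24.3% and 23.1% of all tested genes.

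Of 9 tested cytokine receptors that feed the choice, 4 were higher and 2 lower, beside 10.4% and 9.53% of all tested genes. Csf1r, the receptor for macrophage colony-stimulating factor, had 139, 179 and 215 in WT and 997, 963 and 1088 in E531R, 5.72-fold higher. Csf2ra, the receptor for granulocyte-macrophage colony-stimulating factor, rose from 4669 ± 149 to 8874 ± 542, and Flt3, the receptor of early and dendritic progenitors, fell from 42.6 ± 3.11 to 5.98 ± 1.00 (SD, n = 3 each). Csf3r, the granulocyte receptor, was also higher, with a log2 fold change of 0.36 (limma, adjusted p = 0.0106), and was singled out after its values were seen. Its call was lost without E531R replicate 1 or 2, when 2 receptors were higher.

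Target genes of the factors, from lists written from general knowledge with earlier results of these data known, were mostly higher or did not pass. Over the 8 target lists, which share 9 genes, 36 of 59 tested genes were higher and 2 lower, with a median log2 fold change of 0.51, beside 10.4%, 9.53% and 0.01 over all tested genes. Without WT replicate 3 the counts were 41 and 7, beside 24.3% and 23.1% of all tested genes in that fit. PU.1 targets were higher in 16 of 20 and lower in 0 with limma and with edgeR, with a median of 0.89. At an unadjusted p under 0.05, 17 were higher and 0 lower, and without WT replicate 3 limma called 17 higher and 1 lower. Cybb, the membrane subunit of the phagocyte oxidase, had 84.6, 82.7 and 84.2 in WT and 3193, 3151 and 3266 in E531R, 38.2-fold higher. The integrin gene Itgam, which encodes CD11b, rose from 2746 ± 107 to 7490 ± 95.6, and Cd68, a lysosomal glycoprotein of macrophages, from 250 ± 26.4 to 1250 ± 71.4 (SD, n = 3 each). The PU.1 targets that did not pass included Fcer1g, Btk and Tlr4.

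Of 8 tested IRF8 targets 4 were higher and 0 lower with limma and with edgeR, also at an unadjusted p, with a median of 0.93. The count of higher genes was 3 with DESeq2, with the replicate block and among genes with a mean of at least 50. It was also 3 without WT replicate 1 and without any single E531R library. Limma called 6 higher and 1 lower without WT replicate 3, beside 24.3% and 23.1% of all tested genes. Besides Klf4 and Cybb the genes higher over all libraries included Ctss, a lysosomal protease of antigen presenting cells. Ctss rose from 101 ± 13.6 to 840 ± 68.8 (SD, n = 3 each). Ciita and Il12b, IRF8 targets of dendritic cells and stimulated macrophages, had means of at most 0.383. Only 3 of 11 IRF4 and IRF5 targets could be tested. Chil3 and Tnf rose, with log2 fold changes of 5.19 and 1.10, and Il12a fell from 312 ± 51.7 to 139 ± 13.2. Il12a and Tnf are cytokine genes and Chil3 encodes a chitinase-like protein. Prdm1, a target of IRF4 in plasma cells, lay under the minimum mean with 1.33 ± 1.66 in WT and 17.4 ± 8.09 in E531R.

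Genes that GFI1 is known to repress were higher in 7 of 12 tested and lower in 0, with a median of 0.52; DESeq2 called 1 lower, and 1 was lower at an unadjusted p. The count of higher genes was 4 without E531R replicate 1 or 3. Gfi1 itself was higher in the same E531R libraries. They included Csf1r and Egr1 above and Id2, whose product blocks DNA binding by E proteins, which had 28.7, 23.0 and 26.0 in WT and 194, 201 and 212 in E531R. Id2 and the E-cadherin gene Cdh1 are also known as genes that ZEB2 represses. Cdh1 had 1.60, 3.44 and 4.72 in WT and 54.2, 50.6 and 48.7 in E531R, a log2 fold change of 3.69 (limma, adjusted p = 0.000354). Of that list 2 of 3 tested genes were higher. Nfil3, whose repression by ZEB2 was not checked here, did not pass (log2 fold change -0.04). The untested genes of the list, Epcam and Esrp1, lay under the minimum mean and went the other way from Cdh1. Epcam had 6.40 ± 0.673 in WT and 2.09 ± 0.774 in E531R, and Esrp1 1.83 ± 1.65 and 0.

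MYB targets went both ways: of 10 tested, 3 were higher and 1 lower, with a median of -0.06. The count of lower genes was 0 without E531R replicate 1 or 2, and 2 with DESeq2, upper-quartile rescaling or the replicate block. It was 3 without WT replicate 3, where 23.1% of all tested genes were lower. Cd34, a progenitor surface marker, rose from 505 ± 79.7 to 1014 ± 54.6, and Cxcr4, the receptor that retains cells in the marrow, from 2481 ± 226 to 3439 ± 45.0 (SD, n = 3 each). Mpo, the myeloperoxidase gene of granulocyte precursors and a target of RUNX1 as well, rose 1.47-fold. Of 8 tested RUNX1 targets 5 were higher and 0 lower, with a median of 0.35. They were Csf1r, Mpo, Itgal and the members Spi1 and Gfi1. The count of higher genes fell to 2 without any single library other than WT replicate 3 and to 3 with upper-quartile rescaling, and DESeq2 called 1 lower, as did limma without WT replicate 3. Itgal, an integrin of leukocytes, rose from 3806 ± 330 to 4897 ± 89.4, a call lost without any library but WT replicate 3. Of 3 tested MAF targets 2 were higher: the cyclin gene Ccnd2, 1.31-fold, and the mannose receptor gene Mrc1, 32.2-fold. The complement genes C1qa, C1qb and C1qc and Il10, MAF targets of mature macrophages, had means of at most 0.556. Cd163, the remaining untested MAF target, went the other way from Ccnd2 and Mrc1. It had 10.7 ± 1.10 in WT and 3.99 ± 0.986 in E531R, under the minimum mean over all libraries.

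**Figure D4:**
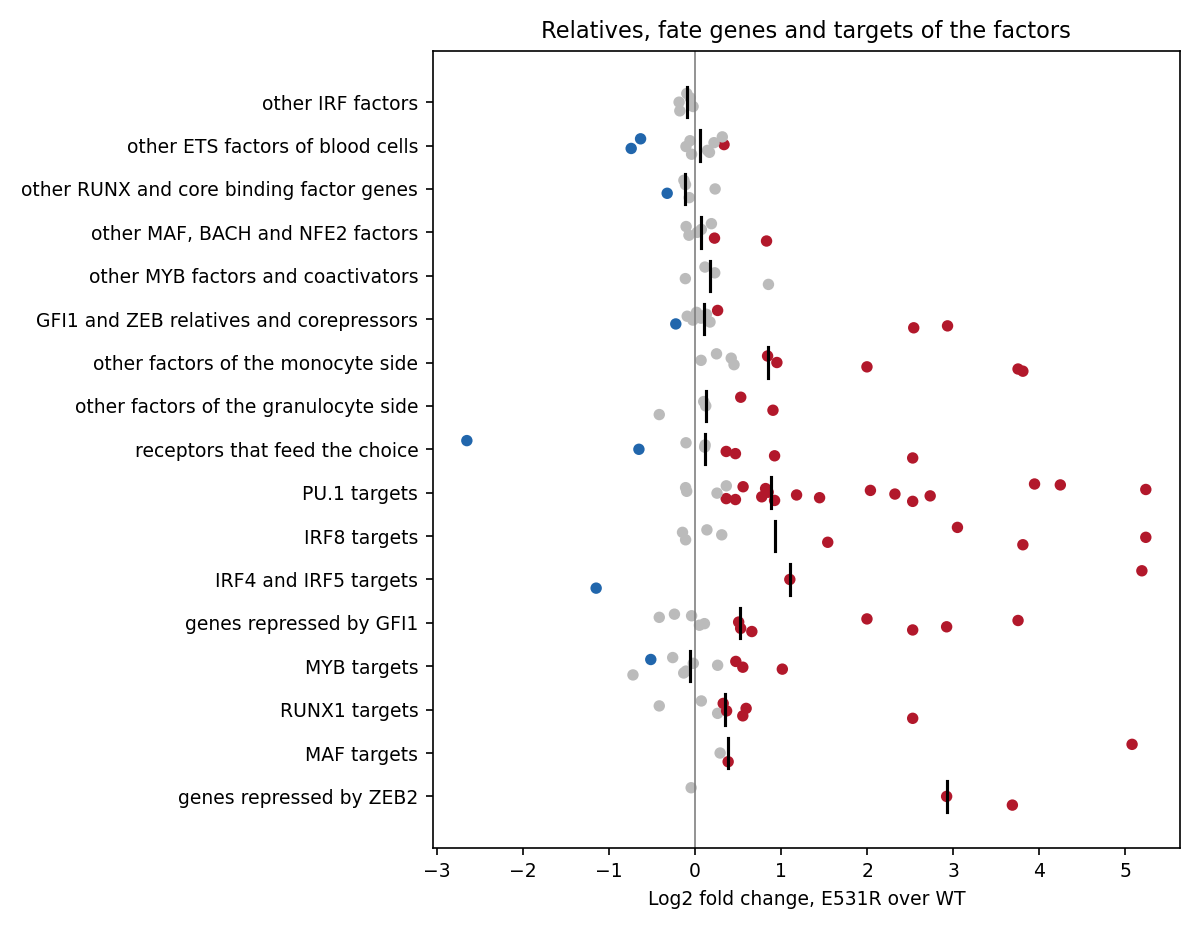
Log2 fold change of E531R over WT (x axis) of each tested gene of 17 lists (rows), red and blue where higher or lower at a limma, adjusted p under 0.05, grey otherwise, with a black bar at the list's median. The median is 0.89 for PU.1 targets, 0.84 for other factors of the monocyte side and -0.10 for the other IRF factors.

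Most similar patterns were sought by the root mean square difference of centred log2 values over the 6 libraries, among 9350 genes with a mean of at least 100. For Spi1 these were Lfng, Mapk3 and Cotl1, at 0.0272, 0.0275 and 0.0311. For Gfi1 they were Mmp19, Poc1b and Smim14, for Runx1 Pik3cb and Bicd2, and for Myb Jmy, Dapp1 and Zak, all at distances of at most 0.0307. Irf8 was closest to Gpsm3, Tspan14 and Ppp1r13l, Irf5 to Tagap, Sh3pxd2b and Fam20c, and Zeb2 to Col4a3bp, Supt16 and Ints6. Irf4, with few reads, had no gene nearer than 0.291, and its closest was Zfp28. None of the 8 factors run had another factor among its 3 most similar genes. Irf4 and Maf, with means under 100, could not be listed as similar to others, and Maf was not run. The points share the same 6 libraries, so these are descriptions.

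Of the nearest protein-coding genes on each side of the 9 factors 13 were tested, and 1 passed, beside 19.9% of all tested genes. Leaving out WT replicate 3, 8 passed, 3 higher and 5 lower, or 61.5%, beside 47.4%. The gene that passed over all 6 libraries was Gtdc1, 56.0 kb from Zeb2, at means of 192 (SD 15.5) for WT and 265 (SD 6.24) for E531R, a difference of 0.47 on the log2 scale (limma, adjusted p = 0.016). Slc39a13 and Mybpc3, which flank Spi1 at 12.0 and 2.39 kb, differed by -0.06 and 0.57 on the log2 scale and did not pass (limma, adjusted p = 0.694 and 0.0847). Cox4i1, a respiratory chain gene 62.2 kb from Irf8, had -0.44 (limma, adjusted p = 0.0689), and it passed as lower without WT replicate 3. Ahi1 and Hbs1l, which flank Myb, had 0.30 and -0.13 (limma, adjusted p = 0.207 and 0.27). Genes that overlap the factors on the opposite strand cannot be separated where counting ignores strand. The overlapping genes A430072P03Rik at Gfi1, Gm26577 at Myb and Zeb2os at Zeb2 had log2 fold changes of 0.14, 0.06 and -0.00, and none passed.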

How the data were processed

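The deposited table holds, per gene and library, values of unit signal that the authors made by dividing read counts by 1 size factor per library (DESeq2). The authors also deposited a log2 fold change, its standard error and statistic (a score) and p-values, per the file headers. FastQC, cutadapt, HISAT2, SAMtools and featureCounts with GRCm38 were used, per the submitters' processing notes; their versions, the annotation and the strand option were not given in the sources used here. All values came out as whole reads within 0.001, so reads were recovered. A read was worth 0.695 to 1.60 units.

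The main test was limma 3.58.1 (R 4.3.3), with its trend option, of log2(value + 1) over the 12991 genes with a mean of at least 10, two-sided, without covariates, adjusted by Benjamini-Hochberg and called under 0.05. Fold changes on this scale understate those of low genes. Other tests were edgeR 4.0.16 quasi-likelihood, which called 1393 genes higher and 1251 lower on the recovered reads, DESeq2 1.42.0 and limma voom. In simulated data for E531R against WT over 12991 genes, the recovered share was 40% for genes changed 1.5-fold, 58% for 2-fold and 96% for 4-fold. Of the calls 9 were false, or 5.81%. Only 50 genes were changed at each fold, and noise was drawn separately for each gene. The simulation thus held no shift shared by many genes, such as that of WT replicate 3, and error rates in these libraries may differ.

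Size factors rest on most genes being unchanged. Total reads per library set the precision of low genes such as Irf4. Groups follow the titles. The members and lists were chosen with earlier results of these data known. Named genes are all members, up to 3 genes per list with the smallest adjusted p past the threshold, the 3 most similar genes per member, and the nearest protein-coding neighbours; any other gene was chosen after its values had been seen. A few genes that this rule names are not reported here. Positions and exon lengths come from GENCODE M21 on GRCm38, matched by symbol, promoters from RefSeq. Permutation tests used scipy 1.17.1. Alternatives were pseudocounts, filters, rescaling, the count tests, the replicate number as a block, and leaving out each library.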

Additional observations from a re-analysis of the deposited data

How the results depend on the processing

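Irf5 and Runx1 kept their direction and their call under all 16 alternatives, and Irf4 stayed uncalled under the 15 that could test it. The number of members higher, 4 of 9, was 2 with upper-quartile rescaling and 2 to 5 with 1 library left out. The number lower, 0, was 1 with upper-quartile rescaling, 1 with DESeq2 on recovered reads and 0 to 2 with 1 library left out. Genes higher ranged from 819 to 3159 and genes lower from 746 to 2999 with 1 library left out, the highest counts without WT replicate 3. Zeb2 turned from 0.12 to -0.13 without WT replicate 3. With 1 library left out, the log2 ratio difference of Irf8 to Gfi1 ran from -0.0163 (without WT replicate 2) to 0.0932 (without WT replicate 3), and was -0.00438 without E531R replicate 1. That of Irf8 to Irf4 ran from -0.613 (without E531R replicate 1) to 0.205 (without E531R replicate 2) and was 0.0627 with a pseudocount of 10. That of Spi1 to Runx1 ran from -0.0471 (without WT replicate 2) to 0.253 (without WT replicate 3), and was -0.0339 without WT replicate 1. Each therefore has a sign that single libraries set. Irf5 to Irf8 was 1.30 with a pseudocount of 10. The cause of these changes was not tested. Replicate numbers are shared by the groups, and the labels do not say whether they pair. Deviations of same-numbered libraries correlated at 0.0017, 0.19 and 0.24. WT replicate 1 correlated best with E531R replicate 2, at 0.177, and WT replicates 2 and 3 with the E531R library of the same number. Deviations were taken from each group's own mean, so these correlations depend on one another and cannot decide on pairing. With the replicate block 1179 genes were higher and 1062 lower, and 4 members higher and 0 lower. Depth limits Irf4 and Maf.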
